A study of Homo sapiens with 18 samples.

Results

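The genes described here, grouped as angiomotins and upstream regulators of the Hippo pathway, are 10 of the 21944 listed in the deposited table. The group is mixed, as it also holds *SAV1* and *MOB1A*, adaptors of the pathway's kinases, and *VGLL4*, a nuclear cofactor. The 10 genes were chosen by name, with the symbols *AMOT*, *AMOTL1*, *AMOTL2*, *NF2*, *PTPN14*, *WWC1*, *FRMD6*, *SAV1*, *MOB1A* and *VGLL4*. All 10 are listed at each of the 3 times. The RNA came from pancreatic progenitor cells made from human embryonic stem cells and reseeded at day 19 on LN411, a laminin isoform, or on fibronectin (FN), after dissociation with accutase in every group and without any further agent named in the labels. Cells were harvested after 3, 6 or 24 h, giving 6 groups of 3 samples and 18 samples in all. The labels give the line as HUES4 but also describe the cells as NGN3-GFP, an SA121-derived line with a reporter for NEUROG3. The authors' paper names NGN3-GFP as the source of the cells in this RNA sequencing.

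The Hippo pathway restrains the co-activators YAP and TAZ, which drive transcription with TEAD factors when cells spread and build actin fibres. Membrane and junction proteins such as merlin (*NF2*) and KIBRA (*WWC1*) promote the activity of a kinase chain that ends in LATS1 and LATS2, which phosphorylate YAP. Angiomotins bind actin, junction proteins and YAP itself, and so can hold YAP outside the nucleus.

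The value analysed is the authors' mean normalized count, in which the reads of a gene are scaled for library depth and averaged over samples of both matrices and all times. It was the same for a gene at every time it is listed, with a largest relative gap of 4.89e-07. It therefore has no spread between replicates and holds no contrast of LN411 with FN. Differences between the matrices or times were not analysed here for these genes. The depth of single libraries is also unknown, and the means add up to 53217583 over all listed genes. To compare genes, each mean was divided by the length of the gene's longest annotated transcript in kilobases, and all levels below are on this scale unless stated. Genes with a length numbered 21861, or 99.6% of those listed, and their median level was 99.6 per kilobase.

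The labelled cell type was checked against its markers. All 9 markers of pancreatic progenitors are listed, with high levels for *GP2* (40743 per kilobase), *SOX9* (5259) and *PDX1* (4969) and a low level for *PTF1A* (8.10), which is also an acinar factor. The pluripotency genes *POU5F1* and *NANOG* are not listed. Among markers of other cells, the liver gene *AFP* stood at 10996 and *ALB* at 280.0, and the collagen gene *COL1A1* of mesenchyme stood at 692 and *COL3A1* at 58.3. The endothelial genes *CDH5* and *PECAM1* had levels of 1.24 and 11.0, and the hormone gene *GCG* had 14.5. *INS* had an authors' mean of 8.32 normalized counts. *CDH5* and *INS* are listed at 1 of the 3 times and *GCG* at 2. In bulk RNA, fewer cells of a type and less RNA per cell cannot be told apart, and the part of these other cells in the levels below was not tested.

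All 10 genes lay above the median level of listed genes. Their levels ran from 392 per kilobase for *PTPN14* to 2114 for *MOB1A*, a 5.39-fold range, with a median of 689. The median member stood above 79.8% of all genes, and 8 of the 10 stood above 75% of them. This count was 5 with the union of exons as the length. It was 4 with the MANE Select transcript, the reference transcript of a gene, where only the 15170 genes that have one are compared. Among those, the places of the 10 genes ran from above 54.7% for *PTPN14* to above 89.2% for *MOB1A*. The listed genes are not all protein-coding and include the pseudogene *RPL39P5*, so a place depends on the genes compared. For 8 of the 10 genes the MANE Select transcript is also the longest, so their own levels were unchanged. Together the 10 genes took 0.111% of all normalized counts.

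**Figure D1:**
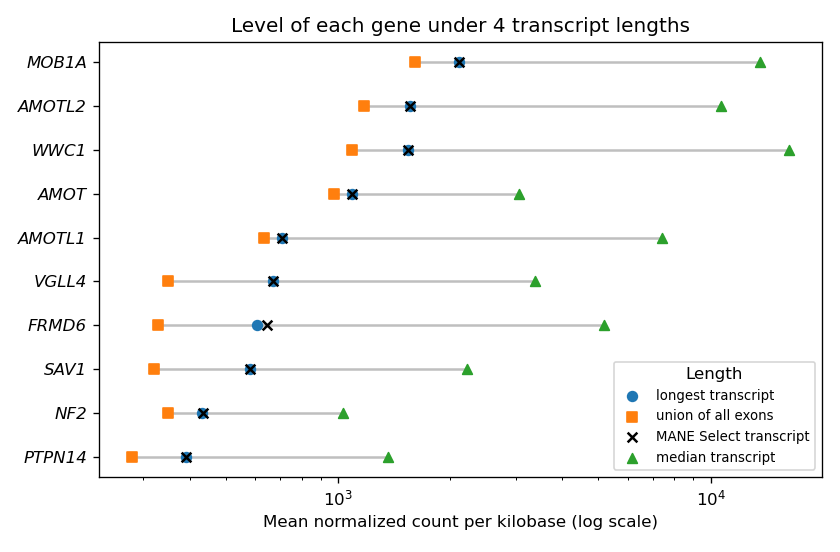
Mean normalized count per kilobase (log axis) of the 10 genes, from the authors' mean over samples, with 1 symbol for each of 4 transcript lengths and a grey line over their range. *MOB1A*, *AMOTL2* and *WWC1* hold the 3 highest levels with every length, while the median transcript (triangles) raises every gene, to 16249 for *WWC1*. For *WWC1*, *FRMD6*, *SAV1*, *VGLL4* and the angiomotins the median transcript is shorter than the coding sequence.

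All 3 angiomotins were expressed at levels well above the median gene. *AMOTL2* (ENSG00000114019) had the highest level of the family, with an authors' mean of 7593 normalized counts and 1560 per kilobase, above 91.1% of all genes. *AMOT* (ENSG00000126016), the founding member, had an authors' mean of 8326 normalized counts, the largest of the family before division by length, and 1094 per kilobase. *AMOTL1* (ENSG00000166025) had 6362 normalized counts and 708 per kilobase. The level of *AMOTL2* was thus 1.43 times that of *AMOT*. *AMOTL2* made up 46.4% of the summed level of the family per kilobase, *AMOT* 32.5% and *AMOTL1* 21.1%. With the other lengths, the share of *AMOTL2* lay between 42.1% and 50.4% and stayed the largest. *AMOT* and *AMOTL1* changed places when the median transcript was used, with 14.5% for *AMOT* and 35.1% for *AMOTL1*. The median transcript has 2720 bases for *AMOT*, 857 for *AMOTL1* and 713 for *AMOTL2*. Each is shorter than the coding sequence of its gene, of 3252, 2868 and 2340 bases, so this length is a poor guide to the full transcript.

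The 3 angiomotins are separate loci with related coding sequences. *AMOT* lies on chromosome X of GRCh38 from 112774503 to 112840831 on the minus strand, *AMOTL1* on chromosome 11 from 94706431 to 94876748 on the plus strand, and *AMOTL2* on chromosome 3 from 134355347 to 134375479 on the minus strand. Their reference transcripts in MANE Select, which names 1 transcript for a gene, have 14, 13 and 10 exons and 3252, 2868 and 2340 coding bases. Aligned coding bases were 69.0% identical between *AMOT* and *AMOTL1*, 69.2% between *AMOT* and *AMOTL2* and 68.4% between *AMOTL1* and *AMOTL2*. No stretch of 50 bases in the longest transcript of *AMOT* occurs in a transcript of any other gene, the other two angiomotins included.

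Leaving the angiomotins aside, *WWC1* (ENSG00000113645, chromosome 5, 168291645 to 168472303) had the highest level of the genes that act at the membrane. It encodes KIBRA, a scaffold with WW domains that works with merlin, and had an authors' mean of 11000 normalized counts, the largest of the 10, and 1542 per kilobase. Its level was 1.43 times that of its paralog *WWC2* (1080) and 6.69 times that of *WWC3* (230.3). These ratios depended on the length, with 1.14 and 5.06 for the union of exons and 7.39 and 38.0 for the median transcript. The share of *WWC1* in the family ran from 48.2% to 86.1%, the latter with the median transcript. The median transcript of *WWC1* has 677 bases, fewer than the 3339 of its coding sequence. *NF2* (ENSG00000186575, chromosome 22, 29603556 to 29698598), which encodes merlin, a protein linking membrane and actin cortex, had 2591 normalized counts and 432 per kilobase. This was the second lowest level of the 10 and stood above 71.3% of all genes. *FRMD6* (ENSG00000139926, chromosome 14, 51489100 to 51730727), a FERM domain protein related to merlin, had 3107 normalized counts and 606 per kilobase. Its relative *FRMD1* had an authors' mean of 12.4 normalized counts and 2.02 per kilobase, the lowest of all Hippo genes examined.

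*PTPN14* (ENSG00000152104, chromosome 1, 214348700 to 214552449) encodes a phosphatase with a FERM domain that binds YAP. Its authors' mean of 5241 normalized counts ranked sixth among the 10 genes, but its transcript of 13360 bases is the longest, and per kilobase it had the lowest level, 392. Its paralog *PTPN21* stood at 492, which left *PTPN14* with 44.4% of the summed level of the pair. With the other lengths, this share was between 40.3% and 44.4%.

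The 2 adaptors of the kinase chain stood far apart in level. *MOB1A* (ENSG00000114978, chromosome 2, 74152528 to 74178898), the co-activator that LATS kinases bind, had an authors' mean of 10352 normalized counts and 2114 per kilobase, above 93.8% of all genes. Its paralog *MOB1B* had a level of 1038 per kilobase, so that *MOB1A* made up 67.1% of the pair, and between 66.3% and 67.6% over all lengths. The coding sequences of *MOB1A* and *MOB1B* have 79.6% identical bases, and no stretch of 50 bases is shared between them in the longest transcript of *MOB1A*. *SAV1* (ENSG00000151748, chromosome 14, 50632058 to 50668306), the adaptor of the STK3 and STK4 kinases, had the smallest authors' mean of the 10, 1795 normalized counts, and a level of 580.0 per kilobase. The kinases it binds stood lower per kilobase, *STK3* at 199.3 and *STK4* at 310.4. Before division by length, *STK4* had 2503 normalized counts, more than *SAV1*.

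*VGLL4* (ENSG00000144560, chromosome 3, 11556069 to 11771350) encodes a nuclear cofactor that competes with YAP for TEAD. It had an authors' mean of 2527 normalized counts and 669 per kilobase. The other vestigial-like genes were far lower, with 33.9 for *VGLL2*, 27.2 for *VGLL3* and 9.77 for *VGLL1*. *VGLL4* held 90.4% of the summed level of the family, and between 84.6% and 94.2% over all lengths. The highest share came with the median transcript, which for *VGLL4* is shorter than the coding sequence.

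In order of level, *MOB1A* was followed by *AMOTL2*, *WWC1*, *AMOT*, *AMOTL1*, *VGLL4*, *FRMD6*, *SAV1*, *NF2* and *PTPN14*. The step from *MOB1A* to *AMOTL2* was 1.36-fold, that from *WWC1* to *AMOT* 1.41-fold and that from *AMOT* to *AMOTL1* 1.54-fold. *AMOTL2* and *WWC1* differed by only 1.01-fold and *FRMD6* and *SAV1* by 1.05-fold. Since the authors' mean has no error, none of these steps could be set against the spread between replicates. Of the 9 neighbouring pairs, 4 had the same order under all 4 lengths. These were *MOB1A* over *AMOTL2*, *WWC1* over *AMOT*, *AMOTL1* over *VGLL4* and *FRMD6* over *SAV1*.

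A list of 28 other Hippo pathway genes gave the surroundings of these values, and 27 of the 28 are listed at all times. Their median level was 477 per kilobase, beside 689 for the 10 genes, and 22 of the 28 lay above the median of all genes. Levels ranged from that of *FRMD1* to 2033 for *AJUBA*, a LIM domain protein that binds LATS kinases. No gene of the list stood above *MOB1A*, and 13 of the 28 stood below *PTPN14*. Before division by length, the largest mean of the list, 14855 normalized counts, exceeded the 10352 of *MOB1A*. *YAP1* had a level of 1615 and *WWTR1*, which encodes TAZ, 690.

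**Figure D2:**
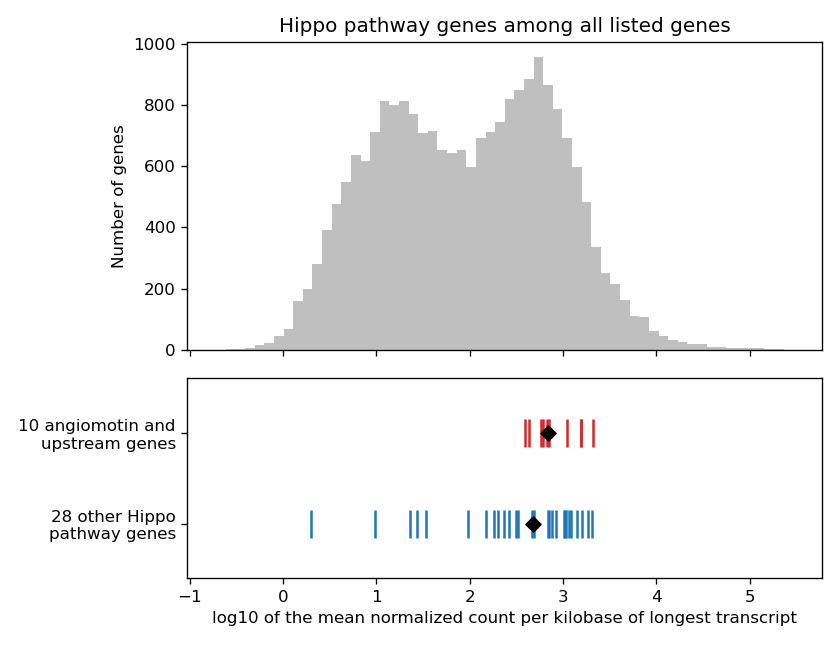
Upper panel, number of listed genes by the log10 of the mean normalized count per kilobase of longest transcript; lower panel, each line is 1 of the 10 genes or of the 28 other Hippo pathway genes, and diamonds mark the medians of 689 and 477 per kilobase. The 10 genes lie within a 5.39-fold range in the upper part of the distribution, while the other list extends down to 2.02.

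Some counts may be incomplete where genes overlap. Reads that fall in 2 genes cannot be given to either when counting ignores the strand, and the sources used here do not say which setting was taken. *VGLL4* overlaps *ATG7*, an autophagy gene on the opposite strand, by 1597 exonic bases, and 41.5% of the stretches of 50 bases in its longest transcript also occur, on either strand, in transcripts of *ATG7*. *SAV1* overlaps *ATL1* on the opposite strand by 1789 exonic bases, and 21.2% of its stretches occur in other genes. The authors' mean was 720 normalized counts for *ATG7* and 99.8 for *ATL1*. Of the other 8 genes, *AMOT* and *FRMD6* share no stretch and the rest share at most 5.01%, reached by *AMOTL1* with an unnamed antisense transcript. Stretches were taken from the longest transcript only. Over all its exons, *PTPN14* overlaps the pseudogene *KRT18P12* on the opposite strand by 1213 bases, or 6.47%. The effect of shared reads on the levels of *VGLL4*, *SAV1* and *PTPN14* was not tested.

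**Figure D3:**
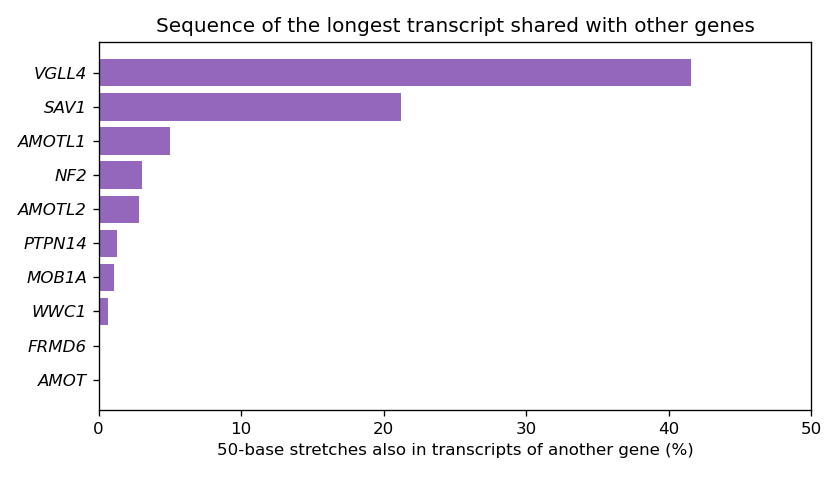
Share (%) of the stretches of 50 bases in the longest transcript of each of the 10 genes that also occur, on either strand, in a transcript of another gene of the annotation. *VGLL4* (41.5%) and *SAV1* (21.2%) stand apart from the other 8 genes, which reach at most 5.01%.

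The transcripts of the 10 genes have long parts that do not code. In the MANE Select transcript, the share of bases outside the coding sequence was above 50% for all 10, from 51.9% for *AMOTL2* to 86.8% for *MOB1A*, whose coding sequence has 648 of 4896 bases. *MOB1A* therefore combined the highest level with the shortest coding sequence of the set.

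YAP acts on genes through TEAD sites, so the promoters of the 10 genes were searched for the letters of such a site. RefSeq gives 17 windows of 300 bases around the starts of the 10 genes, and GGAATG, the core of the TEAD element, was looked for on both strands. It occurs in 2 of the 17 windows, beside 14.0% of the 35116 windows of all genes, and TGANTCA, the element of AP-1, occurs in 0 of the 17, beside 7.71% of all. The 2 matches, shown for their surroundings, are printed 5′ to 3′ on the strand of the gene, with the match in capitals, which reads as CATTCC because it lies on the opposite strand. The match of *AMOTL2* begins 69 bases before the start in the window from 134374398 to 134374697, and that of *PTPN14* 200 bases before its start. *AMOTL2* has another window, from 134375368 to 134375667, which holds no match. The 30 bases printed for *AMOTL2*, which include the bases on both sides of the match, lie at chr3:134374499-134374528 on the minus strand of GRCh38.p14, and those for *PTPN14* at chr1:214551785-214551814 on the minus strand.
AMOTL2: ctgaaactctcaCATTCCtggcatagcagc
PTPN14: cctcccgggccgCATTCCtccccgcccccg
A match of letters is a description and says nothing of binding in these cells. The 2 genes stand second and last in the order of levels, at 1560 and 392 per kilobase.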

How the data were processed

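Poly(A) RNA was sequenced by the authors, who aligned reads with STAR 2.7.2d to GRCh38 with GENCODE v32 and normalized counts with DESeq2 1.34.0. The signal used here is the authors' deposited mean normalized count, averaged over samples. The deposited table also holds the authors' comparison of LN411 with FN (a fold change, its error, a statistic and p-values), which was not used. Values per sample were not used here, so the test planned for counts of single samples, with its normalization, filter, block and leave-one-out alternatives, was not run.

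Means were divided by transcript lengths of GENCODE v44 on GRCh38, matched by Ensembl identifier. The longest transcript was the main length. The union of exons, the median transcript and, added after the data were seen, the MANE Select transcript were alternatives. Overlaps and shared stretches of 50 bases came from the same annotation. The genes and lists were chosen with earlier results of these data known, and named genes are the 10 genes, the highest and lowest other Hippo gene, listed paralogs of members and markers of the labelled cells. *STK3*, *STK4*, *YAP1*, *WWTR1*, *VGLL1*, *VGLL2*, *VGLL3*, the markers of other cells and the genes overlapping members were named outside that rule, after their values were seen. Protein features were not analysed here. Functions were checked on simulated data. The calculations ran under Python 3.11.15 with scipy 1.17.1, pandas 2.3.3 and numpy 2.4.6.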

Additional observations from a re-analysis of the deposited data

How the results depend on the processing

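No paired analysis was possible because the authors' mean is pooled over all samples. The same holds for leaving out replicates. The median member stood above 79.8% of genes, and above 79.0% with the union of exons, 88.2% with the median transcript, 90.7% without scaling by length, 76.3% among genes listed at all 3 times, 77.1% after dropping genes below a mean of 10 and 68.3% with the MANE Select transcript, which was chosen after seeing the data and leaves 15170 genes. The number of members above 75% of genes was 8, and it was 5 with the union of exons and 4 with the MANE Select transcript. It lay between 6 and 9 with the other alternatives. Dropping genes below a mean of 10 lowers the place of a well expressed gene by construction. The MANE Select alternative leaves out genes without such a transcript, whatever their level, so its lower places were not fixed in this way. Over all 6 alternatives and the value in the report, *NF2* ranged from 57.0% to 78.6%, *PTPN14* from 54.7% to 89.8% and *MOB1A* from 89.2% to 97.1%. The pooled mean hides any spread between samples, and the depth of single libraries is unknown.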
